A study of Mus musculus with 4 samples.

Results

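The Hedgehog pathway was described here through 10 genes, Smo, Ptch1, Gli1, Gli2, Gli3, Sufu, Hhip, Boc, Cdon and Gas1, all of which are among the 32285 genes counted. They were chosen by symbol, and the choice was made with one measured value in view, the lower level of Smo in Cyfip2 knock-in nuclei when all nuclei were summed. That comparison, and the comparison of every other member over all nuclei, is therefore given as a description with no test, as is the knock-in against wild-type value of Smo in any class. Hedgehog ligands bind PTCH1, a receptor that otherwise holds back SMO, the transducer of the pathway at the primary cilium. Active SMO lets the GLI transcription factors switch on target genes, which include Ptch1 and Gli1 themselves. In the adult hippocampus the pathway is known for the upkeep of neural stem cells in the dentate gyrus and for signaling to astrocytes.

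The libraries came from the hippocampi of 2 wild-type (WT) mice and 2 mice heterozygous for a knock-in point mutation of Cyfip2, Cyfip2+/R87C (KI), at postnatal week 28. The study keeps this line on the C57BL/6N background, and both WT and KI libraries carry the same batch date. Cyfip2 encodes a subunit of the WAVE complex, which controls branched actin, and the KI allele is carried by every cell. The label of KI replicate 2 reads R88C where KI replicate 1 reads R87C, counts per gene do not show which allele a nucleus carried, and the sex of the mice was not used here. Frozen tissue from both hemispheres was reduced to nuclei, and each value is a number of unique molecular identifiers (UMIs), that is, of captured RNA molecules counted once each. Levels are given as CPM, which scale the UMIs of a gene by all UMIs of the same library and class to a common total of 1e+06 UMIs. They were not divided by gene length and are compared only within a gene.

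After removal of 345 barcodes, 55295 nuclei were kept, 12555 to 15981 per library, with totals of 72933401 to 80836416 UMIs. Nuclei were assigned to 18 classes from marker genes that include no member, and 15 classes held at least 20 nuclei in every library. The gate took 70.9% to 73.6% of the nuclei in 3 libraries and 58.2% in KI replicate 2. Against all other nuclei pooled, all markers of a class were at least doubled in it except 1 of 7 for the subicular or cortical excitatory neurons. Single markers could still be higher in another class. Of the subicular or cortical list, Rorb was at 200 CPM there and 960 CPM in astrocytes, and Foxp2 at 170 CPM and 560 CPM in fibroblasts. Of the CA1 list, Wfs1 was at 20.6 CPM there and 50.6 CPM in mural cells. The libraries also differed in make-up, since dentate gyrus (DG) granule neurons were 25.5% and 24.4% of WT nuclei and 17.9% and 16.6% of KI nuclei, and astrocytes were 3.03% and 4.33% against 1.5% and 1.65%. Only 313 barcode sequences occurred in more than 1 library, or 0.566% of all.

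In the GRCm38 annotation, Smo (ENSMUSG00000001761) spans chr6:29735503-29761365 on the forward strand. The genes for the receptors and coreceptors lie at chr13:63508328-63573598 (Ptch1), chr9:35421128-35507652 (Cdon), chr16:44485049-44558897 (Boc) and chr13:60174405-60177365 (Gas1). Those for the transcription factors lie at chr10:127329882-127341974 (Gli1), chr1:118834132-119053619 (Gli2) and chr13:15463235-15730026 (Gli3). Sufu lies at chr19:46396896-46488804 and Hhip at chr8:79965851-80058006. Gli1, Gli3 and Gas1 each overlap a counted gene on the opposite strand, and whether the counting used strand was not given in the sources used here, so these 3 carry that uncertainty.

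The RefSeq promoter table (GRCm38.p6) held 8 of the 10 members, without Gli1 and Boc. The 250 bases before the start are shown for the member with the lowest KI level relative to WT in DG granule neurons (Smo), for one with a higher KI level in oligodendrocyte precursors (Gli2), and for one found at a similar level in all the larger classes (Sufu). Each runs 5′ to 3′ on the strand of its gene, Smo at chr6:29735247-29735496 on the forward strand, Gli2 at chr1:119053620-119053869 on the reverse strand and Sufu at chr19:46396646-46396895 on the forward strand. Capitals mark a GC box, GGGCGG or its complement CCGCCC.
Smo: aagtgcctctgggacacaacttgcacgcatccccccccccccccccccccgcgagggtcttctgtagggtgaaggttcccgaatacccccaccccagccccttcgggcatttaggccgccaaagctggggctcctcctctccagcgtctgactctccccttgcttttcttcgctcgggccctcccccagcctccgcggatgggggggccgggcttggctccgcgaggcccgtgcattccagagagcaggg
Gli2: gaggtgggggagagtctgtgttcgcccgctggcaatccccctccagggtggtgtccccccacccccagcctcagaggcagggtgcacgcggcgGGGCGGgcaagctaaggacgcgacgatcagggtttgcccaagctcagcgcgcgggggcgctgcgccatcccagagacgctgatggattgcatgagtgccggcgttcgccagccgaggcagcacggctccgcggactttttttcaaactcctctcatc
Sufu: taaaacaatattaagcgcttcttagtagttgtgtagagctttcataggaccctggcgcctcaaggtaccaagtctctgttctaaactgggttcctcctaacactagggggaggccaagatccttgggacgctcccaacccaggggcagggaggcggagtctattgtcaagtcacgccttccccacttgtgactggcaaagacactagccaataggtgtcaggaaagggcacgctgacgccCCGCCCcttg
A GC box was present in 6 of the 8 windows and in 32.7% of 32851 promoters of the same length, and the Smo window held none. The member windows held 42.8% (Cdon) to 78.4% (Ptch1) G and C, beside a median of 52.4% over all promoters. The 2 shares with a GC box were not matched for this content. The letters GACCACCCA of a GLI site, searched on both strands, were in 0 of the 8 windows and in 0.225% of all promoters. The activity-linked motifs gave likewise 0 of 8 for an AP-1 site (TGANTCA, 6.75% of promoters) and 0 of 8 for an EGR site (GCGTGGGCG, 0.536%), and 1 of 8, Hhip, for a cyclic AMP response element (TGACGTCA, 1.55%). These are matches of letters in a short window and say nothing of binding.

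The members were divided between cell classes. Astrocytes had the highest level of Ptch1, Gli2 and Gli3 of all 15 classes, and granule neurons of the DG had the highest mean level of Cdon. Each class was set against the unweighted mean of the other 14 in 1 fit over the 60 sums of 4 libraries and 15 classes. Of the 150 member-by-class results, 38 were higher and 20 lower at an adjusted p below 0.05, which is 25.3% and 13.3%, beside 22.4% and 10.7% for all 14483 genes over the same 15 contrasts. The members as a whole thus sat near the background. In astrocytes 7 of the 10 were higher (27.5% of all genes), in fibroblasts 7 (11%), in oligodendrocyte precursor cells (OPCs) 5 (19.0%), in oligodendrocytes 4 (31.4%), and in inhibitory neurons (31.2%) and CA2 neurons (24.3%) 0.

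**Figure D1:**
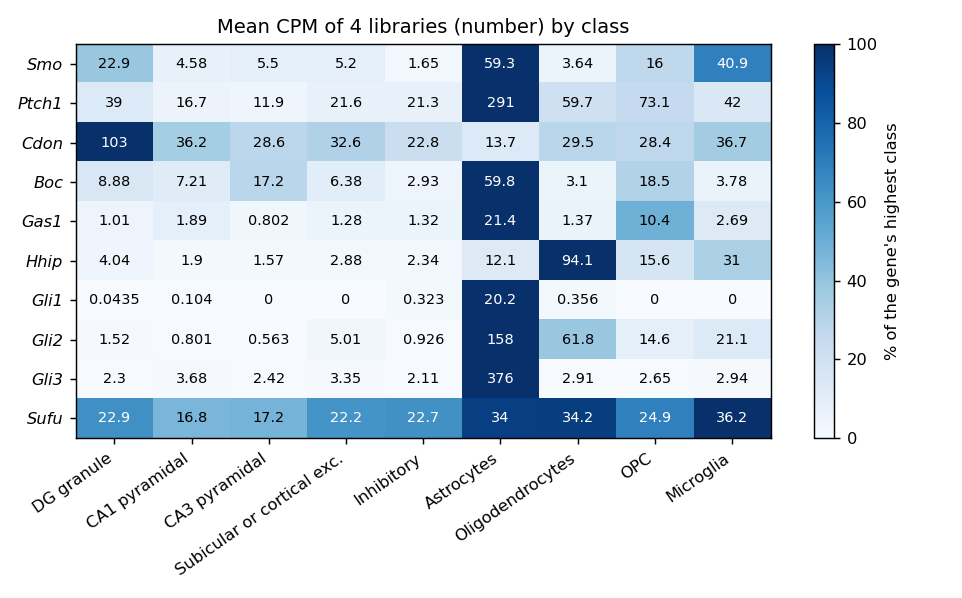
Mean CPM of the 4 libraries for each member (rows) in the 9 classes with at least 100 nuclei in every library (columns), with the value printed and the shade giving the percentage of the gene's own highest class among these 9. Astrocytes hold the darkest cell of Smo, Ptch1, Boc, Gas1, Gli1, Gli2 and Gli3, DG granule neurons that of Cdon, oligodendrocytes that of Hhip, and Sufu is spread over all columns.

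Among the transcription factors, Gli3, which in the absence of signal is cut to a repressor, was at 355 and 390 CPM in the astrocytes of WT replicates 1 and 2, and at 377 and 382 CPM in those of KI replicates 1 and 2. The groups overlapped there, and of the 15 tested classes only fibroblasts and mural cells also exceeded 5.36 CPM in any library. Astrocyte Gli3 stood 7.30 ± 0.17 (SE) above the other classes on the log2 scale (edgeR quasi-likelihood test, adjusted p = 1.3e-40). Gli2, the main activator of the family, was at 182 and 175 (WT) and 136 and 139 CPM (KI) in astrocytes, or 5.95 ± 0.25 (SE) log2 units above the other classes (edgeR, adjusted p = 2e-28). Gli1, an activator and a target of the pathway, was near the limit of detection, with 120 UMIs over all nuclei. Of these 58 were in astrocytes, at 14.2 and 11.1 (WT) and 51.3 and 4.15 CPM (KI). KI replicate 1 stood above the other 3 libraries and KI replicate 2 below them, so the genotypes overlapped. In CA3 neurons, microglia and OPCs no Gli1 UMI was counted in any library, which allows, at 3 counts, up to 4.91 CPM in the shallowest of these sums.

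Ptch1, the ligand receptor, was at 260 and 298 CPM in WT astrocytes and 333 and 272 CPM in KI astrocytes. Its astrocyte range did not overlap that of fibroblasts, next in order at 80.2 ± 15.1 CPM (SD, n = 4), while the ranges of fibroblasts, OPCs and oligodendrocytes overlapped. The coreceptors, which present the ligand to PTCH1, did not share one pattern. Cdon reached 103 ± 10.7 CPM (SD, n = 4) in DG granule neurons, 2.24 ± 0.12 (SE) log2 units above the other classes (edgeR, adjusted p = 4.9e-24), with a range that overlapped that of Cajal-Retzius cells, and its mean in astrocytes was 13.7 CPM. Boc was high in astrocytes (59.8 ± 12.2 CPM) and Cajal-Retzius cells (58.2 ± 43.3 CPM; SD, n = 4 for both), whose ranges overlapped, and in CA3 neurons it stood 2.29 ± 0.30 (SE) log2 units above the other classes (edgeR, adjusted p = 3.9e-09). Gas1 was led by fibroblasts at 62.1 ± 39.7 CPM (SD, n = 4), on 19 UMIs, with overlapping ranges in astrocytes at 21.4 CPM.

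Hhip, which binds Hedgehog ligands and keeps them from the receptor, had its highest means in the oligodendrocyte lineage. It was at 117 ± 36.7 CPM in committed OPCs and 94.1 ± 31.3 CPM in oligodendrocytes (SD, n = 4 for both), ranges that overlapped, and stood 3.82 ± 0.15 (SE) log2 units above the other classes in oligodendrocytes (edgeR, adjusted p = 8.6e-32). It was also higher in microglia, at 31.0 CPM (1.93 ± 0.23 SE, edgeR, adjusted p = 3.4e-10). Of the oligodendrocyte markers, Mog, Mobp, Prr5l and Ermn had microglia as their highest other class, and Mag, Cldn11 and St18 had committed OPCs. In microglia Mog was at 195 CPM and Mobp at 313 CPM, beside 797 and 1302 CPM in oligodendrocytes. The part of this RNA in the microglial Hhip value was not tested. In fibroblasts Hhip was also higher, at 43.3 CPM on 13 UMIs (2.13 ± 0.56 SE, edgeR, adjusted p = 0.00271), where its range overlapped that of oligodendrocytes. Sufu, which holds GLI proteins back in the cytoplasm, was the most even member, with means of 16.8 CPM in CA1 neurons to 40.9 CPM in Cajal-Retzius cells. The range of every class overlapped that of the next in order.

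Smo itself had its highest mean in the few fibroblasts (85.0 ± 44.8 CPM; SD, n = 4, on 26 UMIs), whose range overlapped that of astrocytes. It was at 47.2 and 58.7 CPM in WT astrocytes, 43.2 and 52.9 CPM in WT microglia and 38.5 and 40.4 CPM in WT DG granule neurons. In WT CA1 neurons it was at 5.89 and 6.30 CPM and in WT inhibitory neurons at 1.49 and 3.39 CPM. The granule neurons were thus the only larger neuronal class of the WT libraries above 10 CPM, and their range did not overlap that of astrocytes or microglia in WT.

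Over all nuclei Smo was at 17.2 and 17.9 (WT) and 6.12 and 6.90 CPM (KI), so that the KI mean was 37.0% of the WT mean. The groups did not overlap, and the fitted log2 fold change was −1.38 ± 0.13 (SE). This is the value that chose the members. The other members gave −0.77 for Boc, −0.58 for Ptch1, −0.50 for Gli3, −0.47 for Hhip, −0.33 for Cdon, −0.32 for Gas1, −0.24 for Sufu, −0.14 for Gli1 and 0.21 for Gli2 on the log2 scale, with a median of −0.33 over these 9 beside 0.01 over all genes. With the classes weighted alike in every library, the log2 ratio of Gli3 moved from −0.56 to −0.05, next to the lower share of astrocytes among KI nuclei, and that of Smo from −1.43 to −1.27. That of Gli1 turned sign, from −0.19 to 0.28, so its lower value over all nuclei did not hold at a common composition. There Gli1 was at 0.414 and 0.378 CPM in WT. KI replicate 1, at 0.786 CPM, lay above both WT libraries and KI replicate 2, at 0.177 CPM, below both. Neither sign is read as a difference.

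The lower Smo level lay mainly in DG granule neurons. There it was at 38.5 and 40.4 CPM in WT (713 and 637 UMIs) and at 4.62 and 7.93 CPM in KI (53 and 87 UMIs), with a KI mean of 15.9% of the WT mean and a log2 fold change of −2.53 ± 0.22 (SE). Both KI libraries were far below both WT libraries. Granule neurons carried 51.1% of all Smo UMIs in WT and 13.7% in KI, and made up 72.9% of the difference over all nuclei, a share that also includes their smaller part in the KI nuclei. Nuclei that passed no gate made up 10.4%, with 14.1 and 14.5 (WT) and 8.17 and 7.79 CPM (KI), and CA1 neurons 5.20%.

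**Figure D2:**
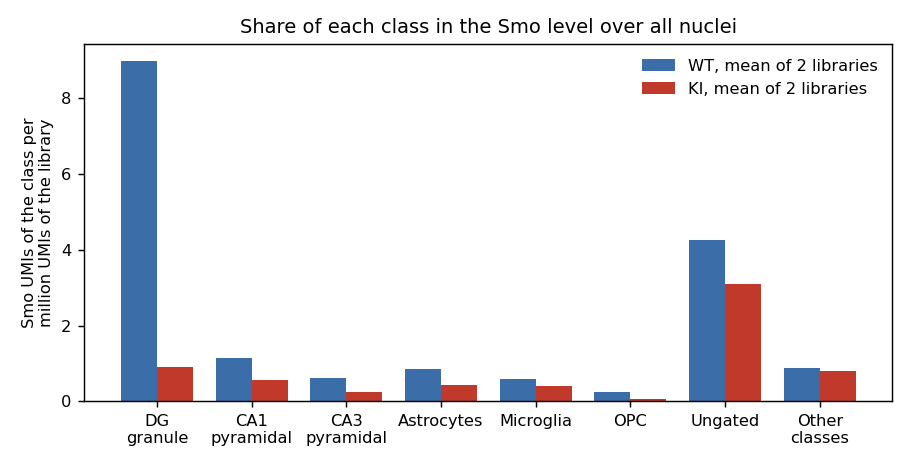
Smo UMIs of each class in CPM of the whole library (vertical axis), as the mean of the 2 WT (blue) and 2 KI (red) libraries, without error bars. DG granule neurons give 8.98 in WT and 0.901 in KI, while the bars of all other groups of nuclei are 4.24 or less.

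In CA1 and CA3 neurons the KI libraries were also lower, but from a small WT level. CA1 neurons had 2.59 and 3.52 CPM in KI (log2 fold change −0.93), and CA3 neurons went from 5.99 and 8.11 (WT) to 3.53 and 4.36 CPM (KI) (−0.75). The granule neuron difference exceeded that of CA1 neurons by 1.59 and that of CA3 neurons by 1.82 log2 units. CA2 neurons went the other way, from 2.53 and 3.15 (WT) to 12.1 and 9.23 CPM (KI), on 24 UMIs in all. In glia the picture was mixed. Astrocytes had 69.0 and 62.3 CPM in KI, both above the WT libraries (0.34 ± 0.25, SE), microglia 47.2 and 20.4 CPM, which straddled WT, and OPCs 3.33 and 13.1 CPM against 20.5 and 27.1 CPM in WT (−1.57 ± 0.53, SE) on 3 to 22 UMIs per library. Without KI replicate 1 or KI replicate 2, the microglial value was −1.12 or −0.01 and the OPC value −0.78 or −2.66, while that of granule neurons was −2.23 or −2.91. With a stricter gate the CA1 value was −0.53.

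**Figure D3:**
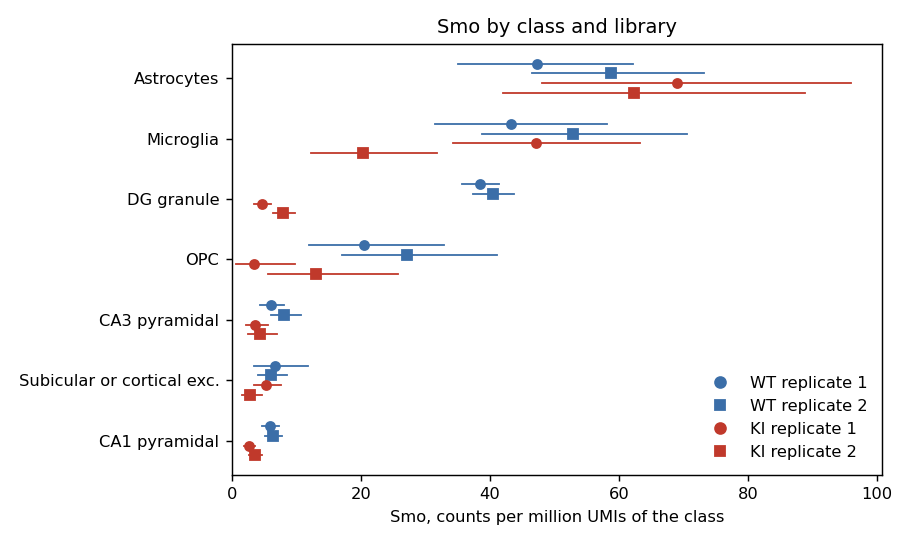
Smo in CPM (horizontal axis) in each library for the 7 classes with at least 40 Smo UMIs in all, with 95% Poisson intervals that cover counting error only. In DG granule neurons the 2 KI libraries (red, 4.62 and 7.93) lie apart from the 2 WT libraries (blue, 38.5 and 40.4), and in astrocytes the intervals of all 4 libraries overlap.

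The granule neuron values were also compared at equal depth. Each nucleus was thinned to 2000 UMIs, and a Smo UMI was then found in 6.36% and 7.67% of WT granule nuclei and in 0.716% and 1.60% of KI granule nuclei, with 95% exact binomial intervals of 5.61% to 7.17%, 6.76% to 8.66%, 0.410% to 1.16% and 1.11% to 2.21%. Without thinning the shares were 14.6%, 16.6%, 2.22% and 3.58%. Thinning left out 177, 66, 19 and 70 granule nuclei with fewer UMIs. In inhibitory neurons, taken here as a class with little Smo, the thinned shares were 0.588% and 1.26% in WT and 0.168% and 0.242% in KI, at median depths of 4994 to 6111 UMIs per nucleus beside 4051 to 4639 in granule neurons. The upper bounds of these KI inhibitory shares were 0.930% and 0.871%, so the interval of KI granule neurons overlapped them in replicate 1 and lay above them in replicate 2. Within granule nuclei of 500 to 3000 UMIs, Smo was at 35.7 and 36.4 (WT) and 5.12 and 4.47 CPM (KI). The bands of 3000 to 6000 UMIs and of 6000 and more gave 35.9 to 43.7 CPM in WT and 3.06 to 10.2 CPM in KI.

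Markers of other cell types were present at a low level in the granule neuron sums and differed between genotypes. The 7 astrocyte markers in DG granule neurons summed to 70.8 and 67.0 (WT) and 34.0 and 49.5 CPM (KI). Astrocytes themselves had 3723 to 5287 CPM of these markers, and Smo did not exceed 69.0 CPM there. The 6 OPC markers went the other way, at 66.6 and 74.4 (WT) and 214 and 155 CPM (KI). Their part in the Smo values was not tested. All 8 granule markers were raised in the class, with a summed level of 2379 to 2443 CPM in WT and 2173 to 2300 CPM in KI.

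Within classes, the other 9 members were tested between KI and WT wherever edgeR's low-count filter left them, which gave 61 of 135 possible results. Of these, 4 passed an adjusted p of 0.05, 3 lower and 1 higher in KI. That is 6.56%, beside 2.48% of the 140890 results for all genes in the 15 classes (1.05% lower and 1.43% higher), and at an unadjusted p below 0.05 there were 16 (26.2%) beside 16.1%. The calls were Ptch1 in CA1 neurons (2.06% of all genes were lower there), Ptch1 and Cdon in CA3 neurons (1.38% lower) and Gli2 in OPCs (0.729% higher). Of the 61 results, 3 reached the filter's minimum level through the libraries of 1 group alone, Gli2 in OPCs and Gli3 in CA3 neurons through KI and Gli3 in fibroblasts through WT. Such a result entered the test because one group was high, so the Gli2 call is given as a description and the counts above are not support for a direction. The number depended on the libraries. It was 1 without WT replicate 1, 1 without WT replicate 2, 10 without KI replicate 1 and 19 without KI replicate 2, where 1.06%, 1.21%, 8.46% and 18.5% of all results passed. With a KI library left out, 1 KI library remained and the spread between replicates came from the WT pair alone. The number was 10 with the replicate number as a block, where 6.12% of all results passed.

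**Figure D4:**
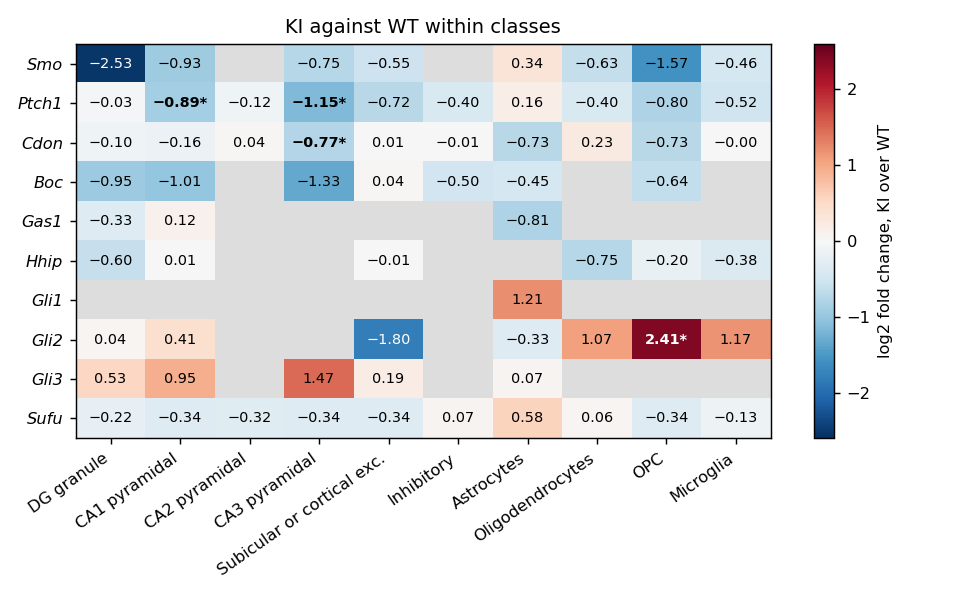
Fitted log2 fold change, KI over WT, of each member (rows) in the 10 classes in which at least 3 members passed the low-count filter (columns). Grey cells were not fitted, a star marks an adjusted p below 0.05, and the Smo row carries no test. The starred Gli2 value in OPCs met the low-count filter through the KI libraries alone and is given as a description. Smo in DG granule neurons at −2.53 and Gli2 in OPCs at 2.41 lie at the ends of the scale.

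In 9 of the 10 classes with a Ptch1 fit, all but astrocytes, its level was lower in both KI libraries than in both WT libraries. This order was met by 31.2% of the results for all genes in those 10 classes. The count was made on CPM, not on the fitted values. The 10 classes share the same 4 libraries, so they are not separate observations. Ptch1 passed the test in CA1 and CA3 neurons. In CA3 neurons it was at 17.6 and 15.7 (WT) and 6.50 and 7.70 CPM (KI), without overlap (−1.15 ± 0.23 on the log2 scale, SE; edgeR quasi-likelihood test, adjusted p = 0.0320). In CA1 neurons it was at 23.3 and 20.7 (WT) and 9.28 and 13.5 CPM (KI), also without overlap (−0.89 ± 0.19, SE; edgeR, adjusted p = 0.0457). In CA2 neurons the log2 fold change was −0.12 ± 0.40 (SE, edgeR, adjusted p = 0.946). In granule neurons it was at 42.0 and 40.4 CPM against 34.0 and 39.7 CPM (−0.03 ± 0.12, SE; edgeR, adjusted p = 0.887). Among the classes with no call, it was at 92.8 and 96.1 (WT) and 44.5 and 58.9 CPM (KI) in OPCs (−0.80 ± 0.24 SE, edgeR, adjusted p = 0.112). In subicular or cortical excitatory neurons the log2 fold change was −0.72 ± 0.27 (SE, edgeR, adjusted p = 0.564), in microglia −0.52 ± 0.28 (SE, edgeR, adjusted p = 0.782), in inhibitory neurons −0.40 and in oligodendrocytes −0.40. The difference between granule and CA1 neurons was itself past the threshold at 0.87 ± 0.14 (SE; edgeR class-by-genotype term, adjusted p = 0.00320), and that between granule and CA3 neurons at 1.11 ± 0.20 (SE; edgeR, adjusted p = 0.00185). The granule neurons, where Smo differed most, had the smallest Ptch1 difference among granule, CA1 and CA3 neurons. Without WT replicate 1 the adjusted p rose to 0.251 in CA1 and 0.201 in CA3 neurons, without WT replicate 2 to 0.102 and 0.0524, and when libraries were scaled by their totals the CA1 value was 0.0501. By DESeq2 the CA3 value was 0.0972. The markers of astrocytes, the class with the highest Ptch1 level, summed to 37.4 and 37.3 (WT) and 24.3 and 28.3 CPM (KI) in CA1 pyramidal neurons, and to 37.3 and 40.9 (WT) and 26.7 and 37.7 CPM (KI) in CA3 pyramidal neurons. The OPC markers were higher in KI, at 89.0 and 99.2 CPM against 156 and 151 CPM in CA1 and at 78.2 and 95.7 CPM against 188 and 130 CPM in CA3 pyramidal neurons. The part of either list in the Ptch1 result was not tested.

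Cdon also fell in CA3 neurons, from 36.4 and 37.4 (WT) to 20.4 and 20 CPM (KI) (−0.77 ± 0.16, SE; edgeR, adjusted p = 0.0382). The 2 libraries of each genotype were close and the genotypes did not overlap. In granule neurons, its main class, it was at 111 and 111 (WT) and 99.9 and 88.5 CPM (KI), which gave −0.10 ± 0.12 (SE; edgeR, adjusted p = 0.612). The granule and CA3 effects differed by 0.68 ± 0.14 (SE; edgeR class-by-genotype term, adjusted p = 0.00481). Without WT replicate 1 the adjusted p of the CA3 value was 0.263, and without WT replicate 2 it was 0.245. It was 0.0653 with sums thinned to equal depth, and 0.0920 by DESeq2.

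Boc was lower in both KI libraries in CA3, granule and CA1 neurons, but at an adjusted p above 0.05. In CA3 neurons it was at 23.3 and 26.3 (WT) and 5.20 and 14.1 CPM (KI) (−1.33 ± 0.34, SE; edgeR, adjusted p = 0.0674). In granule neurons the values were 11.4 and 12.7 CPM against 4.44 and 7.02 CPM (−0.95 ± 0.23, SE; edgeR, adjusted p = 0.0568). The CA1 values were 10.3 and 9.18 CPM against 2.85 and 6.51 CPM (−1.01 ± 0.34, SE; edgeR, adjusted p = 0.124). KI replicate 1 was the lowest library each time, and the CA3 log2 fold change was −0.75 without it and −2.12 without KI replicate 2. Whether Boc passed depended on the setting. The CA3 value had an adjusted p below 0.05 in 9 of 12 alternatives, which were the 4 with a library left out, the replicate block (0.00129), no low-count filter (1.4e-06), a stricter gate (0.0276), sums thinned to equal depth (0.0360), all by edgeR, and DESeq2 (0.0420). The granule value did so in 6 of 12, which were the 2 without a KI library, the block (0.00406), no filter (0.0467) and the stricter gate (0.0453) by edgeR, and DESeq2 (0.0468).

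Gli2 in OPCs, the dividing precursors of oligodendrocytes, was at 3.62 and 6.16 (WT) and 28.9 and 19.6 CPM (KI), where the low-count filter asked for 12.2 CPM in 2 libraries and was met by the KI pair alone (2.41 ± 0.53, SE; edgeR, adjusted p = 0.0221). The counts were small, 3 and 5 UMIs in WT and 26 and 12 in KI, and the pooled ratio was 5.16 with a 95% exact binomial interval of 2.37 to 12.8 that covers counting error only. The UMIs came from 3 and 5 of 339 and 294 nuclei in WT, and from 21 and 12 of 356 and 229 nuclei in KI. In KI, the OPC nuclei with a Gli2 UMI had oligodendrocyte markers at 644 and 1162 CPM, beside 462 and 609 CPM in those without, and OPC markers at 6696 and 6720 CPM, beside 6348 and 5548 CPM. In WT the few such nuclei had oligodendrocyte markers at 1073 and 1911 CPM, beside 632 and 419 CPM in the rest. Over the whole OPC class the oligodendrocyte markers summed to 638 and 447 (WT) and 475 and 638 CPM (KI), ranges that overlapped, and the OPC markers to 7170 and 7866 (WT) and 6372 and 5609 CPM (KI). Those of inhibitory neurons in OPC nuclei came to 2815 and 2884 (WT) and 4075 and 3820 CPM (KI). In inhibitory neurons Gli2 itself did not exceed 0.990 CPM. The markers of astrocytes, the class with the highest Gli2 level, summed to 201 and 233 (WT) and 323 and 227 CPM (KI) over the OPC class. In OPC nuclei with a Gli2 UMI they were at 390 and 527 (WT) and 322 and 220 CPM (KI), beside 199 and 227 (WT) and 324 and 228 CPM (KI) in those without. The part of these lists was not tested. The OPC value passed no adjusted p of 0.05 without WT replicate 1 (0.316), WT replicate 2 (0.124) or KI replicate 1 (0.292), nor with the replicate block (0.104), a stricter gate (0.0627) or sums thinned to equal depth (0.155), which is 6 of the 11 alternatives that gave one. DESeq2 gave none. With no low-count filter at all it was 0.00131 by edgeR.

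Gli2 was higher in both KI libraries also in oligodendrocytes, at 44.9 and 36.7 CPM in WT against 87.9 and 77.4 CPM in KI (1.07 ± 0.19 SE, edgeR, adjusted p = 0.102, below 0.05 in 5 of 12 alternatives), and in microglia, at 13.8 and 12.6 CPM against 32.2 and 25.7 CPM (1.17 ± 0.36 SE, edgeR, adjusted p = 0.610). Microglia also held oligodendrocyte markers, such as Mog at 195 CPM and Mobp at 313 CPM, beside 797 and 1302 CPM in oligodendrocytes. The part of this RNA in the microglial Gli2 value was not tested. In subicular or cortical excitatory neurons Gli2 was lower in both KI libraries, with a KI mean at 25.9% of the WT mean (−1.80 ± 0.48 SE, edgeR, adjusted p = 0.465). In astrocytes, its main class, the order was the opposite of that in the glial classes above, with all KI values below all WT values and a log2 fold change of −0.33 ± 0.19 (SE; edgeR, adjusted p = 0.478). The astrocyte and OPC effects differed by −2.74 ± 0.52 (SE; edgeR class-by-genotype term, adjusted p = 0.000402), though without WT replicate 1 the adjusted p was 0.185. Likewise the granule and CA1 difference of Ptch1 had an adjusted p of 0.0608 by edgeR without WT replicate 1. For members other than Smo, 4 of the 33 such terms in 4 pairs of classes were called (12.1%), beside 6.89% for all genes. The share for all genes was 9.81% for granule against CA1 and 8.85% for granule against CA3. It was 6.0% for granule against inhibitory neurons and 0.723% for astrocytes against OPCs. The 4 include the Gli2 term, which rests on the OPC values that met the filter within OPCs through the KI pair alone. That term is therefore given as a description, and the count is not support for a direction.

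**Figure D5:**
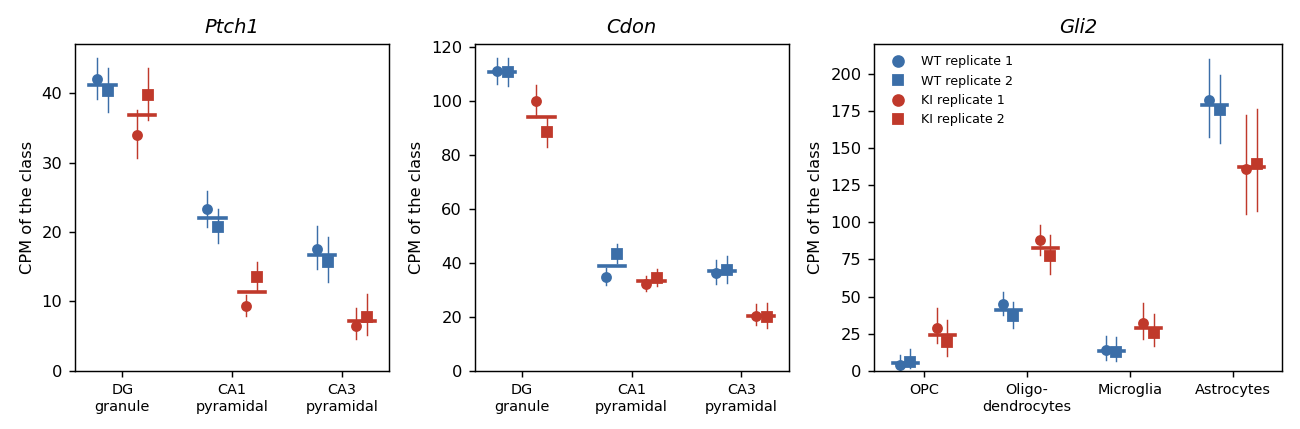
CPM of Ptch1 and Cdon in 3 neuronal classes and of Gli2 in 4 glial classes, for each library (circles replicate 1, squares replicate 2, blue WT, red KI) with 95% Poisson intervals for counting error and the group mean as a bar. The KI libraries lie below the WT libraries for Ptch1 and Cdon in each neuronal class shown. For Gli2 they lie above in OPCs, oligodendrocytes and microglia and below in astrocytes.

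The remaining members gave no call in the fit described. Hhip in oligodendrocytes was at 107 and 132 (WT) and 63.8 and 73.5 CPM (KI), without overlap (−0.75, edgeR, adjusted p = 0.156). Its adjusted p was below 0.05 in 5 of 12 alternatives, and so was that of Gli2 in oligodendrocytes, in each case the 2 without a KI library, the replicate block (0.0400 for Hhip and 0.000568 for Gli2), no low-count filter (0.0143 and 0.000348) and a stricter gate (0.0441 and 0.0245), all by edgeR. Gli3 was low in neurons but higher in both KI libraries in CA3 neurons, at 1.36 and 1.32 CPM against 3.90 and 3.08 CPM (1.47 ± 0.42, SE; edgeR, adjusted p = 0.0884, with the filter met by the KI pair alone), and in CA1 neurons, at 2.54 and 2.66 CPM against 5.25 and 4.26 CPM (0.95 ± 0.27, SE; edgeR, adjusted p = 0.0897). In astrocytes the Gli3 log2 fold change was 0.07 ± 0.17 (SE; edgeR, adjusted p = 0.912). Sufu lay between −0.34 and 0.58 in the 10 classes in which it was fitted. Gas1 in astrocytes was at 28.3 and 26.7 (WT) and 11.8 and 18.7 CPM (KI) (−0.81, edgeR, adjusted p = 0.397), on 6 to 36 UMIs.

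A list of 48 further pathway genes gave 407 results within classes, of which 5 were higher and 5 lower in KI (2.46%, beside 2.48% for all genes). The 10 calls fell on 6 genes. The 16 genes of SMO and cilium control gave 0 calls in 164 results by edgeR. Among the 13 genes of GLI control, Prkacb, a catalytic subunit of protein kinase A, which marks GLI proteins for processing, rose in granule neurons from 83.0 ± 2.97 to 116 ± 2.09 CPM (SD, n = 2; 0.62, edgeR, adjusted p = 0.0189). Among the 6 targets, Ccnd2, a cyclin of the G1 phase that other pathways also control, fell in granule neurons (−0.54), CA1 neurons (−1.03) and CA3 neurons (−0.61), from 86.5 to 54.2, 45.2 to 21.2 and 186 to 114 CPM. Its adjusted p by edgeR was 0.0302, 0.0116 and 0.0251. Without WT replicate 1 or WT replicate 2 the granule and CA3 values of Ccnd2 and the granule value of Prkacb no longer passed, with adjusted p from 0.113 to 0.345. Among the 11 genes of the ligands and their release, Gpc5, a glypican of the cell surface, rose in CA1 neurons from 664 to 2510 CPM (1.99, edgeR, adjusted p = 0.000940) and in CA3 neurons from 55.7 to 562 CPM (3.41, edgeR, adjusted p = 0.00124). The receptor Lrp2 rose in CA1 (2.27) and CA3 neurons (1.47), and Gpc3 in granule neurons (−2.75) and Mycn in CA1 neurons (−2.54) fell by edgeR, all with a mean under 10 CPM over the 4 libraries. The ligands themselves were scarce in these nuclei, with 136 UMIs of Shh, 31 of Ihh and 15 of Dhh over all 4 libraries. Shh was at 1.81 CPM in WT and 1.73 CPM in KI inhibitory neurons, on 31 UMIs.

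Over the 60 sums of library and class, the genes whose log2 CPM followed Smo most closely were Bcor (Pearson r = 0.728), Phf21a (0.705) and Med13 (0.70). For Gli3 the closest was Id1 (0.826) and for Hhip it was Cdk19 (0.898), followed by Spsb1 (0.863) and Mbp (0.856). These values describe likeness over 15 classes, whose sums share 4 libraries and differ widely in depth.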

How the data were processed

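Nuclear RNA from frozen hippocampus was measured in 4 libraries of the 10x Genomics 3′ kit. The authors deposited raw UMI counts per gene and barcode, made with Cell Ranger 7.0.1 per the file headers, with mm10 named in the submitters' processing notes. The treatment of strand and of introns in that counting was not given in the sources used here. Barcodes with under 500 genes or at least 5% mitochondrial UMIs were removed. A nucleus was assigned to a class by the likelihood of its marker counts, and 3060 nuclei better explained by a mix of classes were left unassigned. No doublet caller was run. The gate was set after marker levels and class sizes were seen, and the members and lists were chosen with earlier results of these data known. UMIs were summed per library and class, and CPM were taken from those sums.

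KI and WT were compared in each of 15 classes with the quasi-likelihood test of edgeR 4.0.16 in R 4.3.3 (low-count filter, TMM factors, Benjamini-Hochberg adjustment over all genes of a class, threshold 0.05). Classes were compared with library as a block. Replicates were 2 mice per group. Intervals from counts cover counting error only. The tests were also run on simulated counts. For KI against WT, 4-fold changes were recovered for 96.0% of 200 genes in DG granule neurons and 89.5% in OPCs, and 2-fold changes for 69.0% and 40.5%. The class contrast recovered 86.5% but also called 38 unchanged genes, at log2 values of up to 1.85, so smaller class differences are weak. The class-by-genotype term recovered 36.0%.

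All 10 members were examined in every class. Of a list of 48 other pathway genes, those past the threshold with a mean of at least 10 CPM were named, at most 3 per class and direction, and the remaining calls were added after their values were seen. Likeness was Pearson's r of log2(CPM + 1). Samples with the same replicate number did not deviate together (r = 0.0941 over 9700 genes), so the fits carried no replicate block. DESeq2 1.42.0, library totals, other gates and filters, thinned sums and each library left out were alternatives. IDs were matched to GENCODE M21, where 32235 of 32285 were found.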

Additional observations from a re-analysis of the deposited data

Results flagged for a closer look

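The genotype effect of 2 members differed between classes of neurons by a test of the difference. Ptch1, the receptor, was lower in KI CA1 and CA3 neurons, and its log2 effect in DG granule neurons exceeded that in CA1 neurons by 0.87 and that in CA3 neurons by 1.11. Cdon, a coreceptor, gave a difference of 0.68 between granule and CA3 neurons. For Gli2 the effect in astrocytes minus that in OPCs was −2.74, on 46 Gli2 UMIs in OPCs. Within OPCs the low-count filter was met by the KI pair alone, so this value is a description.

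For Smo and Sufu, both KI libraries lay on one side of both WT libraries in one class and on the other side in another, and the difference was not tested. Smo had a log2 fold change of −2.53 in DG granule neurons and 0.34 in astrocytes. Sufu had −0.34 in CA3 neurons and 0.58 in astrocytes. Gli2 and Hhip also lay on opposite sides in astrocytes and oligodendrocytes, so such an order was not particular to Smo and Sufu. Hhip in astrocytes rests on 37 UMIs. With 2 libraries per group such an order is easily met, and no share over all genes is given for it.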

How the results depend on the processing

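The log2 ratio of Smo CPM over all nuclei moved from −1.43 to −1.27 at a composition common to all libraries. The fitted value, −1.38, stayed between −1.33 and −1.46 under the other alternatives, with −1.38 under the replicate block. Of all genes, 2.48% of results within classes were called, 1.06% to 18.5% with a library left out, 6.12% with the block, 2.34% without the low-count filter and 3.26% with a stricter gate. Beside these, member calls numbered 4, and 1 to 19 with a library left out, 10 with the block, 10 without the filter and 7 with the stricter gate. Calls of other pathway genes numbered 10, and 4 to 72 with a library left out, the 72 where 18.5% of all results were called, 32 with the block and 22 without the filter. Class-by-genotype calls numbered 4, and 2 to 6 over all alternatives, and class calls 38, and 32 to 39. The replicate numbers did not pair the mice. Of the single tests rerun under the alternatives (8 of members within classes, 6 of other pathway genes and 4 class-by-genotype terms), none changed direction. The log2 CPM ratio of Gli1 over all nuclei turned from −0.19 to 0.28 at the common composition. There KI replicate 1 lay above both WT libraries and KI replicate 2 below both. By DESeq2 the adjusted p was 0.0972 for Ptch1 and 0.0920 for Cdon in CA3 neurons and was not given for Gli2 in OPCs, which also missed the threshold with a stricter gate (0.0627) and thinned sums (0.155), as Cdon did with thinned sums (0.0653). The cause was not tested. Library totals in place of TMM factors moved the median log2 fold change of all genes by −0.13 in granule neurons. The share of all-gene calls that were higher in KI went from 50.7% to 35.5% in granule neurons. In CA1 neurons it went from 61.5% to 52.9% and in CA3 neurons from 61.6% to 42.8%. The split of calls by direction thus depended on the scaling.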
